A study of Mus musculus with 6 samples.

Results

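The insulin and PI3-kinase pathway was examined here in mouse regulatory T cells (Tregs), a suppressive CD4 lineage, after gain or loss of signalling through the adenosine receptor A2AR. The set holds 9 genes of 18193 on the array: the adaptors Irs1 and Irs2, the receptors Insr and Igf1r, the PI3-kinase subunits Pik3ca, Pik3cd and Pik3r1, the PI3-kinase inhibitor Pik3ip1, and the kinase Akt1. All 32 probe sets that the platform's annotation assigns to these genes were taken, of 45101 in all. The set was selected on signals of these same arrays, in which Irs2 differed between the groups. The members' values across the 3 groups are therefore a description, with errors and intervals. No p-value is given for a member, and counts of members past a threshold are printed only beside the same share of all genes.

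Each group had 2 arrays. All cells were sorted from spleen and lymph nodes of C57Bl/6 mice that were 8 to 11 weeks old and carried the FoxP3GFP reporter, as CD4+CD25+FoxP3+ cells by their labels, and were then cultured for 18 h. WT vehicle cells were A2AR+/+ and received DMSO, KO vehicle cells were A2AR-/- and received DMSO, and WT ATL1222 cells were A2AR+/+ and received 10 nM ATL1222, a selective A2AR agonist per the labels. The knockout is described for the animals, with no cell type given for the deletion, and no knockout cells received the agonist. The labels call the replicates biological without saying that they came from separate animals, so the errors measure the spread between these arrays.

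Insulin and insulin-like growth factors bind receptor tyrosine kinases, which phosphorylate the insulin receptor substrates. The phosphorylated substrates recruit PI3-kinase, whose lipid product brings Akt to the membrane. Akt in turn keeps FoxO transcription factors out of the nucleus and raises mTOR activity. In Tregs this pathway is known to be held low compared with effector T cells, and FoxO activity is needed for their function. Irs2 is known as a gene that cAMP raises through the transcription factor CREB in pancreatic beta cells, and that FoxO factors raise and insulin lowers in liver. A2AR is coupled to the production of cAMP.

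The bases before the start sites of both insulin receptor substrate genes are shown here because Irs2 carries the difference described below and Irs1 is its nearest relative in the set. Each window is the 250 bases before the start in RefSeq's mouse assembly GRCm38.p6, read 5′ to 3′ on the gene's minus strand. Capitals mark every match, on either strand, to the E-box CACGTG and to TGTTTTG, the core of the insulin response sequence known as a FoxO site.
Irs2, chr8:11008930-11009179: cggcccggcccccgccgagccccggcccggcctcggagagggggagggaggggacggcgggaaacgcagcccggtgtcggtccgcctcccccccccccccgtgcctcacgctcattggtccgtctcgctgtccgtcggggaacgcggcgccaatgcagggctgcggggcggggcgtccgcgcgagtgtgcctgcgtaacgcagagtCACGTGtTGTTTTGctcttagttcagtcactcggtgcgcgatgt
Irs1, chr1:82291440-82291689: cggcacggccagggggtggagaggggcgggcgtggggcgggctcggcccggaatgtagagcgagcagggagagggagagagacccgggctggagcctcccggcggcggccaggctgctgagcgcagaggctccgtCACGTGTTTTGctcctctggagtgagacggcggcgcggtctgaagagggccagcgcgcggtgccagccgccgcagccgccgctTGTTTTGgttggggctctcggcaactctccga

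In Irs2 the E-box begins 44 bases before the start, and TGTTTTG follows it at 37 bases. In Irs1 the E-box begins 115 bases before the start and overlaps the first of 2 TGTTTTG matches, which lie at 111 and 32 bases. The longest runs that both windows share are 10 bases long, and of these 1 holds the E-box and 1 holds TGTTTTG. Windows were found for 8 of the 9 members, and the E-box and TGTTTTG occurred in 2 of them, Irs1 and Irs2. Over all 32851 such windows in the table, 6.02% held the E-box and 5.56% held TGTTTTG. The complete cAMP response element TGACGTCA was found in 0 of the members' windows and in 1.55% of all windows. Its core TGACG lay in the windows of Irs1, where it overlaps the E-box, and of Pik3r1, and in 17.8% of all windows. The FoxO consensus TGTTTAC was found before 1 member, Akt1, and in 3.17% of all windows. A match or its absence describes these letters in this window and not the binding of a factor.

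Values are array signals on a linear scale, and differences are given on the log2(signal + 16) scale, which understates the change of dim genes. Of the 9 members, 8 had a brightest probe set above the limit for dim genes, a mean of 6.45 on that log2 scale or a signal of about 71.2. Of 8 Treg and T cell markers, 7 were above that limit. Ikzf2, Nrp1, Ctla4, Tnfrsf18 and Cd3e gave signals from 1848 to 8431 over the 6 arrays. The sort markers were dimmer, with Il2ra at 416 to 613, Cd4 at 136 to 488 and Foxp3, below the limit, at 7.18 to 53.5. The summed signal of the 8 was 23715 to 29459 in WT vehicle, 23480 to 25569 in KO vehicle and 27072 to 31913 with ATL1222, higher with ATL1222 than in KO vehicle without overlap. Of these markers 2 passed the test between agonist and knockout, Ctla4 and Tnfrsf18, and the part of the list in the results was not tested. Marker lists of B, myeloid, dendritic, CD8 T and NK, stromal and erythroid cells had 28 of 32 genes on the array, none at 0, of which 7 were above the limit for dim genes. None of those 7 passed the test in any comparison. The summed signal of 5 stromal markers was 349 to 390.0 in WT vehicle, 309 to 419 in KO vehicle and 208 to 238 with ATL1222. The stromal sum was thus lower with ATL1222 without overlap, and its part in the results was not tested. The other lists overlapped between WT vehicle and WT ATL1222. Between WT ATL1222 and KO vehicle the myeloid and the CD8 T and NK sums were also lower without overlap and the dendritic sum higher, and the erythroid sum was higher in KO vehicle than in WT vehicle, at 57.7 to 118 against 14.7 to 56.8. Their part was not tested either. Above the limit for dim genes were 1 of 6 myeloid, 1 of 5 dendritic and 2 of 5 CD8 T and NK genes. The same held for 1 of 5 stromal and 0 of 2 erythroid genes, so most genes in these sums were dim. Separation of 2 from 2 arrays in such sums is no measure of cell content. The sums of B cell, myeloid, dendritic cell and CD8 T and NK cell markers ran from 209 to 687 on single arrays, on the 6 arrays. In such bulk samples, fewer cells that express a gene and less RNA of it per cell cannot be told apart.

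Irs2, the substrate that links insulin and growth factor receptors to PI3-kinase, was lowest without the receptor and highest with the agonist. Its 1 probe set gave signals of 351 and 315 on the WT vehicle arrays, 230.5 and 157 on the KO vehicle arrays, and 690.0 and 615 on the WT ATL1222 arrays. Both knockout arrays lay below both WT vehicle arrays, and both agonist arrays lay above them, so no neighbouring groups overlapped. The group means were 194 ± 51.6 (SD, n = 2) in KO vehicle, 333 ± 25.7 in WT vehicle and 652 ± 53.2 with ATL1222.

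The log2 difference of Irs2 from WT vehicle was -0.75 ± 0.23 (SE) in the knockout, a 1.69-fold lower level, and 0.94 ± 0.23 with the agonist, a 1.91-fold higher level. The 95% intervals were -1.24 to -0.27 in the knockout and 0.45 to 1.42 with the agonist. Between the agonist and the knockout, groups that differ in genotype and agent at once, it was 1.69 ± 0.23, or 3.23-fold. With arrays matched by replicate number, the step with the agonist was 0.94 within replicate 1 and 0.93 within replicate 2. Same-numbered arrays are not known to have been paired, and another matching gives other steps. The closeness of both values is thus no measure of reproducibility. For the knockout the difference was -0.58 within replicate 1 and -0.93 within replicate 2. Among the 10916 genes tested, Irs2 had the rank 85 from the top with the agonist, the rank 144 from the bottom in the knockout, and the rank 22 from the top between agonist and knockout. The comparisons share arrays, so these ranks are not independent of each other. The order of KO vehicle below WT vehicle below WT ATL1222 without overlap was shown by 1 of the 8 members tested, Irs2, and by 1.95% of all genes.

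Irs1, the other substrate, was near the bottom of the scale. It gave 29.7 and 64.1 in WT vehicle, 52.7 and 33.6 in KO vehicle, and 16.8 and 23.7 with ATL1222. All 6 signals lay below the limit for dim genes, so it was not tested, and its low signals are no measure of its transcripts. Of both substrates, only Irs2 was thus measured above the limit on these arrays.

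**Figure D1:**
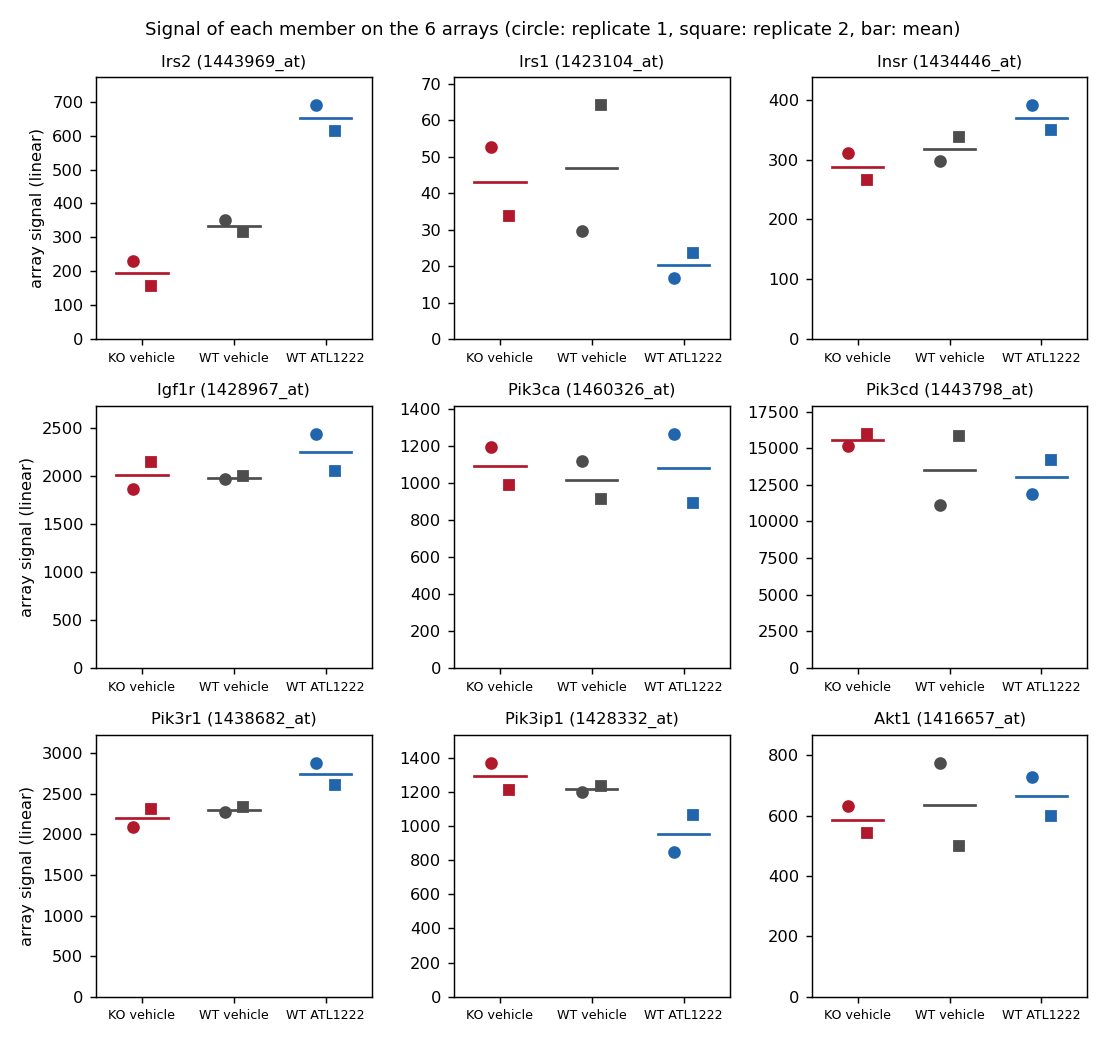
Array signal (linear scale, each axis from 0) of the brightest probe set of each of the 9 members, with 2 arrays per group (circle, replicate 1; square, replicate 2) and the group mean as a bar. For Irs2 the groups are stacked without overlap, from 157 on the lowest KO vehicle array to 690.0 on the highest WT ATL1222 array, and on the log2(signal + 16) scale its range of 2.03 is wider than that of the other 7 tested members, at most 0.68.

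The receptors upstream of the substrates differed little. Insr, which encodes the insulin receptor, had signals of 298 and 338 in WT vehicle, 310.4 and 266 in KO vehicle, and 391 and 349 with ATL1222. The agonist arrays lay above the vehicle arrays by a small step, with a log2 difference of 0.21 ± 0.21 (95% interval -0.25 to 0.67), and the knockout arrays overlapped them at -0.14 ± 0.21 (-0.60 to 0.32). With the 3 Insr probe sets averaged these values turned sign, to -0.05 and 0.26. The other 2 were below the dim limit of 54.1 that holds when every probe set is taken on its own. Igf1r, the receptor of insulin-like growth factor, had signals of 1969 and 1996 in WT vehicle, 1869 and 2145 in KO vehicle, and 2436 and 2056 with ATL1222. Its log2 difference was 0.17 ± 0.15 (-0.14 to 0.49) with the agonist, without overlap, and 0.01 ± 0.15 (-0.30 to 0.33) in the knockout, where the arrays lay on either side of both WT vehicle arrays. All 5 Igf1r probe sets were above the dim limit, and with the agonist 3 of them had a positive and 2 a negative difference. For the brightest probe sets of both receptors the intervals leave room for changes of either sign. The Irs2 estimates of -0.75 and 0.94 lie outside them, but the Irs2 intervals overlap them in both comparisons. The dimmest Igf1r probe set had wider intervals, -1.02 to 1.53 in the knockout and -1.62 to 0.93 with the agonist.

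The estimates for the PI3-kinase subunits differed in sign, with overlapping intervals, and differences between subunits were not tested. Pik3ca, the broadly expressed catalytic subunit alpha, had signals of 1120.3 and 915 in WT vehicle, 1198 and 989 in KO vehicle, and 1266 and 896 with ATL1222. All 3 groups overlapped, with log2 differences of 0.10 ± 0.19 (-0.31 to 0.51) in the knockout and 0.07 ± 0.19 (-0.34 to 0.48) with the agonist. Of its 6 probe sets, 4 had positive and 2 negative differences in the knockout, and 1 of the negative ones was only -0.00055 ± 0.21. The dimmest of the 6 gave 88.9 and 102.7 in WT vehicle, 33.7 and 44.7 in KO vehicle, and 54.9 and 67.1 with ATL1222. Those signals straddle the dim limit, and the knockout difference of -1.02 ± 0.47 was not shared by the 5 brighter probe sets, which ran up to 0.33.

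Pik3cd, the catalytic subunit delta that predominates in lymphocytes, was bright. The probe set chosen for the gene gave 11152 and 15844 in WT vehicle, 15159 and 15964 in KO vehicle, and 11853 and 14165 with ATL1222. One WT vehicle array was low and the other near the top, so both comparisons overlapped, at 0.23 ± 0.16 (-0.12 to 0.57) in the knockout and -0.04 ± 0.16 (-0.38 to 0.31) with the agonist. Of its 6 probe sets 4 were above the dim limit, and 3 of those were higher in the knockout, by 0.23, 0.28 and 0.26. The dimmest of the 4 was at -0.13 ± 0.49.

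Pik3r1 encodes the regulatory subunit alpha, which holds the catalytic subunit and docks on phosphorylated substrates such as Irs2. It had signals of 2279 and 2330.4 in WT vehicle, 2094 and 2313 in KO vehicle, and 2878 and 2612 with ATL1222. Both agonist arrays were above all vehicle arrays, by a log2 difference of 0.25 ± 0.14 (-0.04 to 0.54), while the knockout overlapped WT vehicle at -0.07 ± 0.14 (-0.36 to 0.23). The difference with the agonist was positive for all 4 of its probe sets, which were all above the dim limit. The largest was that of the probe set second in brightness, with 676 and 655 in WT vehicle, 558 and 697 in KO vehicle, and 854 and 1136 with ATL1222, a difference of 0.55 ± 0.19. Of these 4 probe sets, 3 were designed on the same source sequence, with differences from 0.17 to 0.55. In 1 of them, at 0.24 ± 0.34, the agonist arrays lay between the WT vehicle arrays.

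Pik3ip1, a transmembrane protein that restrains PI3-kinase and is known as a FoxO target in T cells, had its lowest signals with the agonist. Its signals were 1201 and 1236 in WT vehicle, 1369 and 1213 in KO vehicle, and 845 and 1062 with ATL1222. The agonist arrays lay below the other 4, by -0.36 ± 0.16 (-0.71 to -0.01), and the knockout overlapped WT vehicle, at 0.08 ± 0.16 (-0.27 to 0.43). With arrays matched by replicate number, though not known to be paired, the step with the agonist was -0.50 and -0.22. Its second probe set was also negative with the agonist, at -0.10 ± 0.24, with overlapping groups. Signals there were 439.5 and 625 in WT vehicle and 406 and 585 with ATL1222.

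Akt1, the kinase that relays PI3-kinase activity, did not separate the groups. It had signals of 775 and 499.5 in WT vehicle, 632 and 541 in KO vehicle, and 729 and 598 with ATL1222. The 2 WT vehicle arrays held both the highest and the lowest value. The log2 differences were -0.09 ± 0.22 (-0.55 to 0.38) in the knockout and 0.08 ± 0.22 (-0.38 to 0.55) with the agonist. Of its 4 probe sets 3 were above the dim limit, of which 1 was positive and 2 were negative with the agonist.

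**Figure D2:**
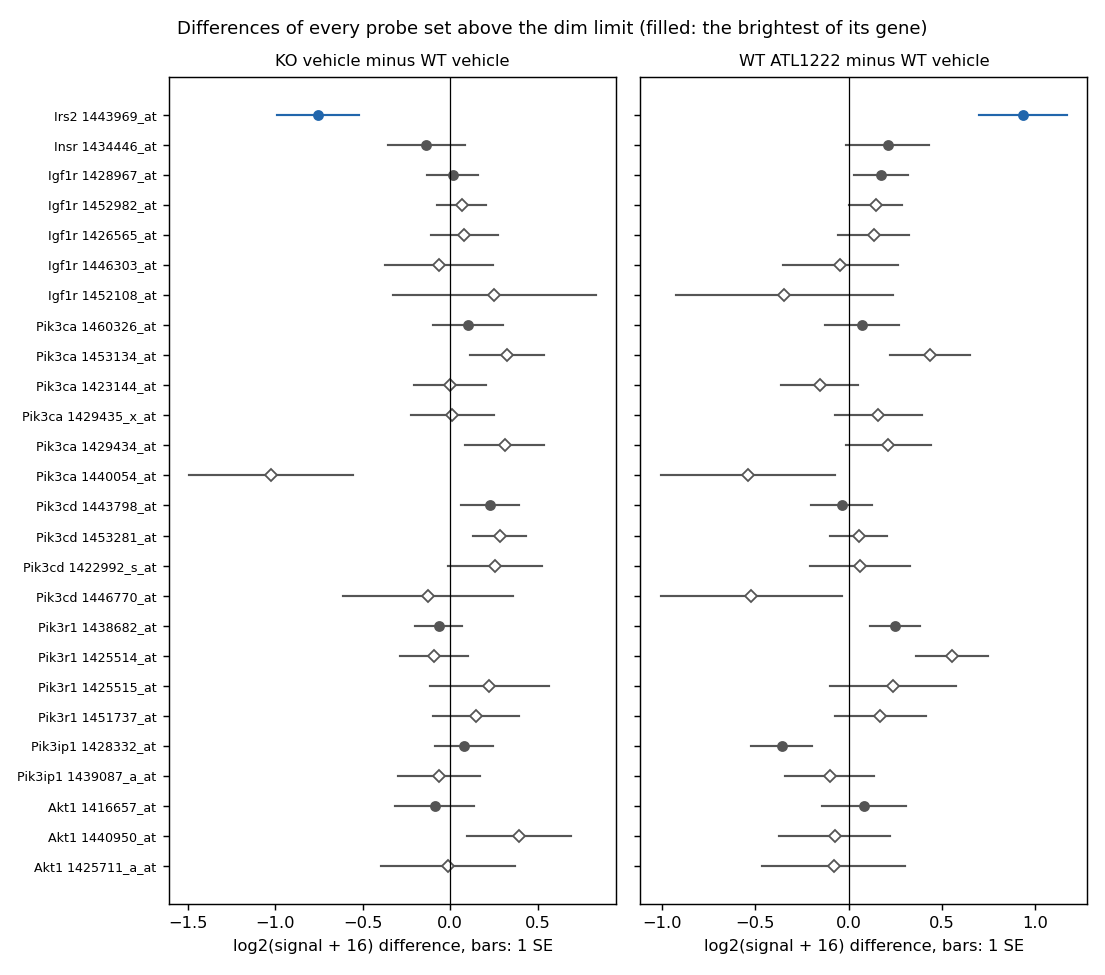
Differences from WT vehicle on the log2(signal + 16) scale for the 26 member probe sets above the dim limit (points, with bars of 1 SE from the fit of every probe set on its own; filled points are the brightest probe set of a gene, Irs2 in blue). Irs2 lies at -0.75 in the knockout and 0.94 with ATL1222, and the 4 Pik3r1 probe sets lie above 0 with ATL1222.

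Across the members tested, the count past the threshold (limma, adjusted p below 0.05 over all genes) was 0 of 8 in the knockout, where 0.0275% of all genes passed, and 0 of 8 with the agonist, where 0.211% passed. At an unadjusted p under 0.05 the counts were 1 of 8, Irs2, where 3.89% of all genes were, and 2 of 8, Irs2 and Pik3ip1, where 5.03% were. Between agonist and knockout the count at the adjusted threshold was 1 of 8, Irs2, where 0.999% of all genes passed. At an unadjusted p under 0.05 it was 3 of 8, Irs2, Pik3r1 and Pik3ip1, where 8.48% of all genes were. With the replicate number as a block, 1 of 8 passed with the agonist, again Irs2, where 0.724% of all genes passed, 0 of 8 in the knockout (0.0824%), and 1 of 8 between agonist and knockout (2.42%). Since the set was selected on these arrays, these counts are no test of the members, and nothing is read from them. The median log2 difference of the 8 members was -0.03 in the knockout and 0.13 with the agonist, against 0.00 and -0.01 over all genes.

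By the arrays alone, 4 of 8 members lay higher with the agonist than in WT vehicle without overlap, Irs2, Insr, Igf1r and Pik3r1, where 14.5% of all genes did. Lower without overlap was 1 of 8, Pik3ip1, where 16.3% of all genes were. In the knockout 1 of 8, Irs2, was lower without overlap, where 13.7% of all genes were. With 2 arrays a group such separations are frequent, and for the brightest probe sets of the 7 tested members other than Irs2 the differences from WT vehicle were at most 0.36 in size (-0.36 for Pik3ip1).

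The remaining pathway genes were taken from lists chosen by function, with earlier results of these arrays known. The counts of each list stand against shares of all genes, given in the order knockout, agonist, and agonist against knockout. At an unadjusted p under 0.05 these shares were 3.89%, 5.03% and 8.48%. At a limma adjusted p below 0.05 they were 0.0275%, 0.211% and 0.999%, and with the replicate block 0.0824%, 0.724% and 2.42%. Of 18 ligands, co-receptors and adaptors, 12 were tested, and 0 rose or fell in any of the 3 comparisons by limma. In the knockout and with the agonist 0 of them had an unadjusted p under 0.05, and 2 did between agonist and knockout. The lowest unadjusted p in each direction in the knockout belonged to Sh2b1, an adaptor of receptor kinases, at -0.19 ± 0.18, and Igf2r, the clearance receptor of IGF-II, at 0.18 ± 0.22 (each adjusted p = 1.00). With the agonist Dok1, an inhibitory docking protein, was at 0.41 ± 0.22 and the adaptor Shc1 at -0.33 ± 0.30 (each adjusted p = 0.998). The median difference of the list was -0.15 in the knockout and 0.03 with the agonist.

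Of 11 other PI3-kinase subunits, 7 were tested and 0 passed in any comparison. At an unadjusted p under 0.05 there were 0 in the knockout, 1 with the agonist and 1 between them. The gene with the agonist was Pik3c3, the class III kinase of autophagy and endosomes, with 341 and 351 in WT vehicle and 497 and 463 with ATL1222, a log2 difference of 0.45 ± 0.19 (adjusted p = 0.901). In the knockout Pik3c3 also lay above WT vehicle, at 415 and 465. Pik3r5, the regulatory subunit of the G protein-activated PI3-kinase gamma, was at 0.45 ± 0.23 in the knockout (adjusted p = 1.00), with 457 and 644 against 427 and 364. The kinase-anchoring subunit Pik3r4 was at -0.16 ± 0.18 in the knockout and -0.19 ± 0.18 with the agonist (adjusted p = 1.00 and 0.998).

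Of 24 lipid phosphatases and inhibitors of insulin signalling, 22 were tested and 0 passed in any comparison in the fit without the block, with 1 at an unadjusted p under 0.05 in the knockout, 3 with the agonist, and 3 positive and 2 negative between them. Inpp5d, the phosphatase SHIP1 that removes the lipid product of PI3-kinase, had 477 and 497 in WT vehicle, 699.7 and 481 in KO vehicle, and 803 and 792 with ATL1222. The agonist arrays stood above the other 4, with a log2 difference of 0.69 ± 0.20, which did not pass (adjusted p = 0.385). Sesn1, a sestrin that restrains mTOR, was at -0.39 ± 0.17 with the agonist (adjusted p = 0.929). The pseudokinase Trib2, known to bind Akt, was at 0.50 ± 0.16 in the knockout (adjusted p = 1.00), with 2177 and 2017 against 1336 and 1639.9. Its relative Trib1 was dim, at 98.4 and 15.7 in KO vehicle, with a difference of -1.21 ± 0.58 (adjusted p = 1.00). With the replicate block, 2 genes were higher and 1 lower between agonist and knockout: the Akt phosphatase Phlpp1 (adjusted p = 0.0199), the mTOR inhibitor Ddit4 (adjusted p = 0.0488) and Sesn1 (adjusted p = 0.0334). Phlpp1 and Ddit4 were named after their values were seen. Phlpp1 had 3579 and 3423 in KO vehicle, 4154 and 3513 in WT vehicle, and 4805 and 5065 with ATL1222.

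Of 27 kinases and effectors downstream of PI3-kinase, which include mTOR complex genes and the FoxO factors themselves, 23 were tested and 0 passed in the fit without the block. At an unadjusted p under 0.05 there were 2 in the knockout, 1 with the agonist and 3 between them, of 23 genes, beside the shares of all genes given above. Tbc1d4, the Akt substrate AS160 that controls glucose transporter traffic, had 1414 and 1325 in WT vehicle, 1273 and 1388 in KO vehicle, and 1811 and 1851 with ATL1222. Only the agonist arrays stood apart among these groups, by 0.42 ± 0.14 (adjusted p = 0.706). The glucose transporter gene Slc2a3 was at -0.19 ± 0.14 with the agonist (adjusted p = 0.998). In the knockout the kinase gene Gsk3a was at 0.41 ± 0.17 and Pdpk1, the kinase that activates Akt, at -0.24 ± 0.19 (each adjusted p = 1.00). Between agonist and knockout Pdpk1 passed with the replicate block, at 0.49 ± 0.19 without it (adjusted p = 0.0361 with the block and 0.413 without it). The medians of the list were -0.04 in the knockout and 0.01 with the agonist.

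FoxO target genes, which Akt activity is known to lower, did not move one way. Of 18 listed, 16 were tested. With the agonist 4 had an unadjusted p under 0.05, all positive, and between agonist and knockout 4 positive and 3 negative did. In the knockout 0 passed, with 1 positive and 1 negative at an unadjusted p under 0.05. With the agonist 2 rose and 0 fell: Bcl6, a transcriptional repressor, from 1094 ± 24.2 to 2086 ± 136 (log2 0.92 ± 0.15, limma adjusted p = 0.0199), and Gadd45a, a stress and growth arrest gene, from 353 ± 40.4 to 808 ± 59.5 (log2 1.16 ± 0.20, limma adjusted p = 0.0322). With the block 3 rose, with the homing receptor gene Ccr7 as the third in the list (log2 0.72 ± 0.14, adjusted p = 0.0534 without and 0.00453 with the block). Bcl6 passed in 10 of 17 alternatives and Gadd45a in 8. Both calls were lost without any single WT vehicle or WT ATL1222 array, with probe sets averaged, with every probe set separate and without the variance trend. The median of the 16 was -0.05 with the agonist, and 10 of them had a negative difference.

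Between agonist and knockout 4 FoxO targets rose, Bcl6, Gadd45a, Ccr7 and the inhibitory receptor gene Ctla4, and 0 fell, with a list median of -0.12. Bcl6 passed in 16 of 17 alternatives, Gadd45a in 15, Ccr7 in 13 and Ctla4 in 9, and all 4 calls were lost without the variance trend. Gadd45a was also lost without WT ATL1222 replicate 1, Ccr7 without either WT ATL1222 array or KO vehicle replicate 2, and Ctla4 without any single array of the 4 compared. With the block 2 also fell, the quiescence factor Klf2 (log2 -0.57 ± 0.13, adjusted p = 0.0705 without and 0.00942 with the block) and the interleukin-7 receptor gene Il7r (-0.40 ± 0.13, adjusted p = 0.295 without and 0.0432 with the block). Klf2 had 5702 and 5121 in KO vehicle, 4272 and 3832 in WT vehicle, and 3427 and 3848 with ATL1222. The genes above that rose and those that fell are thus both on the FoxO list, and the difference in sign was not tested beyond the single genes.

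CREB target genes, which cAMP is known to raise, were lower in the knockout and higher with the agonist at their median. Of 15 listed, 13 were tested, with a median log2 difference of -0.59 in the knockout and 0.89 with the agonist. At an unadjusted p under 0.05 there were 7 in the knockout, all negative. There were 10 with the agonist and 10 between agonist and knockout, all positive. In the knockout 2 fell and 0 rose: Crem, itself a cAMP-responsive transcription factor, at 566 and 462 against 2093 and 1273 (log2 -1.64 ± 0.20, limma adjusted p = 0.00484), and Rgs2, which curbs G protein signalling. Both calls were lost with probe sets averaged, with every probe set tested separately and without the variance trend, and held in the other 14 of 17 alternatives. With the block Cebpb, a C/EBP transcription factor, fell too (adjusted p = 0.0102). With the agonist 4 rose, Crem, Rgs2, Fosl2 and Cebpb, with log2 differences from 1.09 to 1.95, and 8 rose with the block. Without the variance trend none of the 4 calls was left. Rgs2 passed in 16 of 17 alternatives, Crem in 15, Fosl2 in 12 and Cebpb in 9. The last 2 were among those lost with probe sets averaged, as was Crem, and without WT vehicle replicate 2 or WT ATL1222 replicate 1, and Cebpb also without WT ATL1222 replicate 2. The further 4 were Nr4a3, an orphan nuclear receptor, the cAMP phosphodiesterase gene Pde4d, the phosphatase gene Dusp1 and the repressor gene Bhlhe40, at 1.22 ± 0.28, 0.74 ± 0.16, 0.97 ± 0.21 and 0.73 ± 0.20. In the comparison of agonist with knockout 8 rose, and 9 with the block. Crem and Rgs2 passed in 17 of 17 alternatives, and the other 6 in 10 to 16, each lost without the variance trend. The lowest was Nr4a3, lost also without KO vehicle replicate 2 or WT ATL1222 replicate 1. Without WT ATL1222 replicate 1, Bhlhe40 and Pde4d were lost too. All 13 differences with the agonist were positive, though that of the clock gene Per1 was 0.00 and that of the nuclear receptor gene Nr4a1 was 0.14. In the knockout 11 of 13 were negative, and the exceptions in sign were Sik1, a kinase that restrains CREB coactivators, at 0.45, and Pde4b, a cAMP phosphodiesterase, at 0.20 ± 0.15. With the agonist Pde4b was at 0.14 ± 0.15. Per1, Nr4a1 and Sik1 were named after their values were seen. Irs2 was not on that list, and its differences of -0.75 and 0.94 lie near the list's medians. Both Irs2 and the list were chosen with results of these arrays known, so this likeness is a description and no test. Whether CREB has a part in the Irs2 differences was not tested.

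**Figure D3:**
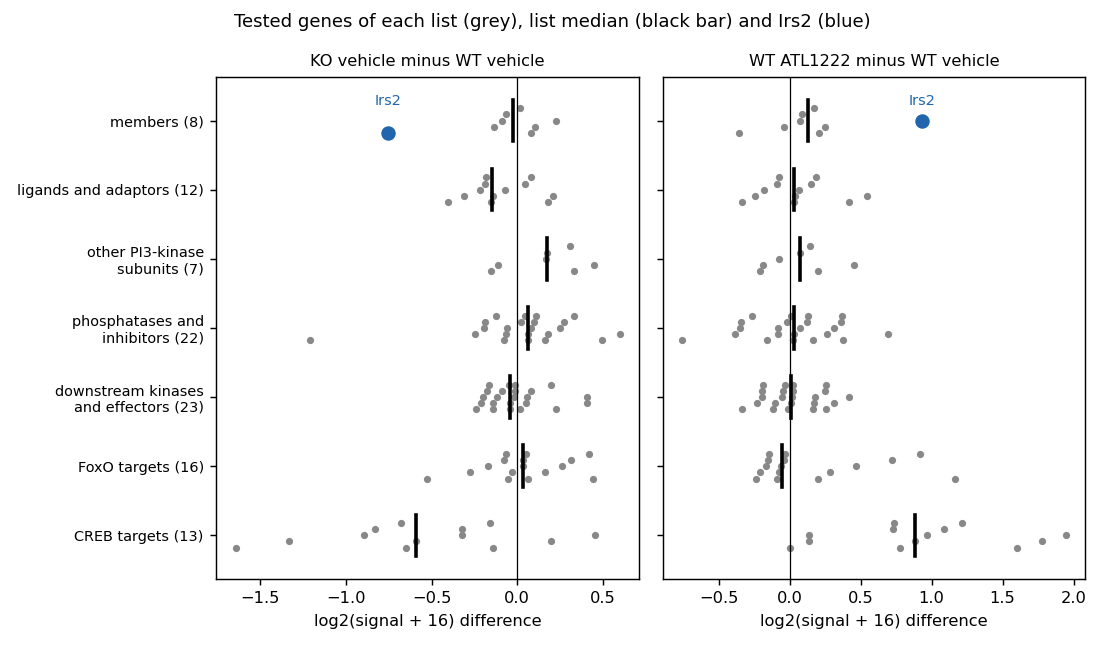
Differences from WT vehicle on the log2(signal + 16) scale for the tested genes of each list (grey points, number of genes in parentheses), with the list median as a black bar and Irs2 as a blue point among the members. The CREB target list has its median at -0.59 in the knockout and 0.89 with ATL1222, while the medians of the lists of insulin and PI3-kinase signalling genes lie between -0.15 and 0.17.

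The genes whose pattern over the 6 arrays was most like that of Irs2 were sought by Pearson correlation on the log2(signal + 16) scale, among 2213 genes whose highest and lowest arrays differed by at least 1. The 5 nearest were Msrb3, a methionine sulfoxide reductase (r = 0.997), the AP-1 genes Fos (r = 0.996) and Fosl2 (r = 0.991), Dusp1 (r = 0.991) and Bhlhe40 (r = 0.990). The 6 points share their 3 groups, and the genes were picked for these values, so they are a description of likeness and no test. Fos had 232 and 193 in WT vehicle, 149 and 116 in KO vehicle, and 401 and 381 with ATL1222. Its log2 differences of -0.62 and 0.84 were close in size to those of Irs2. Msrb3 spanned a wider range, from 36.2 and 10.8 in KO vehicle, below the limit for dim genes, through 132 and 89.7 in WT vehicle to 474 and 465 with ATL1222. Each of the 5 genes was lower on both KO vehicle arrays than on both WT vehicle arrays and higher on both WT ATL1222 arrays.

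**Figure D4:**
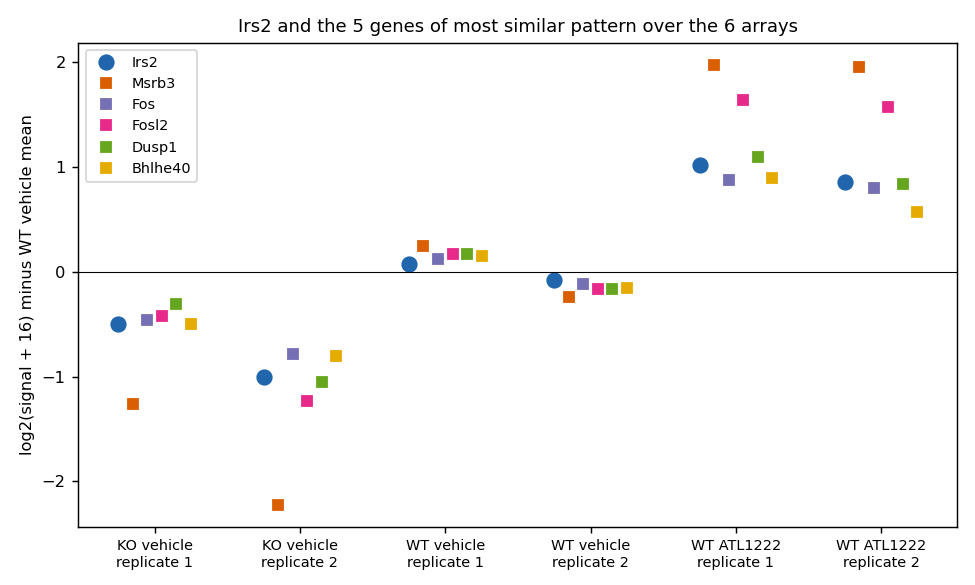
Level of Irs2 (blue circles) and of the 5 genes of most similar pattern (squares) on each array, as log2(signal + 16) minus the gene's WT vehicle mean. On the KO vehicle arrays all 6 genes lie below 0 and on the WT ATL1222 arrays above 0, and KO vehicle replicate 2 is the lower of both knockout arrays for each of them.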

How the data were processed

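The deposited values are array intensities, linear signals for 45101 probe sets on 6 arrays, processed by the authors with GCOS per the submitters' processing notes. Per the labels' protocols, RNA was labelled from 1 µg of total RNA. The sources used here give no version, algorithm or detection calls. All deposited arrays have the same mean after trimming 2% at either end, and this scaling was kept. The members and lists were chosen with earlier results of these data known.

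After removal of 64 control probe sets, 34945 had 1 symbol, 932 several and 9160 none in the platform's annotation. Symbols were updated by Entrez identifier (34741 matched) with a GRCm38.p6 table. Each gene was represented by its brightest probe set, as log2(signal + 16), and the lowest 40% of genes were left out, leaving 10916 genes. One model of the 3 groups over all 6 arrays was fitted with a variance trend (limma 3.58.1, R 4.3.3), with p-values adjusted by Benjamini-Hochberg over all genes. The median standard error was 0.23. The number of arrays limits the precision: an exact test of 2 against 2 cannot go below p = 0.33. The script was tested on simulated data.

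Named were all members. Of each list, genes past the threshold were named, as was the gene with the smallest p in each direction against WT vehicle. Alternatives changed the pseudocount, filter, probe set rule, variance trend, scaling, arrays and block. The main fit had no block, so errors, intervals and counts given without mention of the block ignore the replicate number. Deviations of same-numbered arrays correlated in all 3 pairs of groups (r = 0.147 to 0.230, across genes). The median signal was also higher for replicate 2 than for replicate 1 in each group. These correlations therefore do not show that same-numbered arrays were paired.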

Additional observations from a re-analysis of the deposited data

How the results depend on the processing

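The members' log2 differences were computed under 17 alternatives each, 408 values in all. Of these, 383 moved by less than 1 SD between replicates, 25 by more, and 0 called values changed sign. Among values that passed no test 26 turned sign, 0 of them of Irs2. With probe sets averaged, Insr went to 0.26 in the knockout, -0.05 with the agonist and -0.31 between them, Akt1 to 0.25, -0.05 and -0.30, and Pik3r1 to 0.05 in the knockout. Those of Irs2 ran from -1.01 to -0.50 in the knockout and from 0.85 to 1.02 with the agonist. Between agonist and knockout they ran from 1.44 to 1.94. The knockout value was lowest without KO vehicle replicate 1 and highest without KO vehicle replicate 2. Since the members were chosen on these arrays, whether one passed in an alternative is no test of it.

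The member count (limma) went from 0 to 1 of 8 with the replicate block for the agonist, where 79 of 10916 genes (0.724%) passed. Without the variance trend it went from 1 to 0 of 8 between agonist and knockout, where 5 of 10916 genes passed. There 1 of 8 members had an unadjusted p under 0.05, beside 861 of 10916 genes. The set was selected on these arrays, so these counts are no test of the members. Leaving out a single array leaves 1 array in its group, so no member count is given for those fits. The replicate block changed no other member call.

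Over all genes, the knockout count of 3 became 9 with the replicate block and 0 with probe sets averaged, 0 with every probe set tested separately and 0 without the variance trend. Those fits had 416, 874 and 475 at an unadjusted p under 0.05. The agonist count of 23 became 14 with no filter, 36 with 60% of genes left out, 3 with probe sets averaged, 9 with every probe set separate, 35 after cyclic loess, 79 with the replicate block and 44 with 4 arrays. It was 0 without the trend, with 572 at an unadjusted p under 0.05. Between agonist and knockout the count of 109 became 70 with no filter, 44 averaged, 5 without the trend and 264 with the replicate block. Leaving out single arrays gave 3 to 7, 5 to 39 and 42 to 133. For the knockout, omitting WT vehicle replicate 2 gave 7 genes and omitting KO vehicle replicate 2 gave 5. The agonist count was 5 without WT vehicle replicate 2 or WT ATL1222 replicate 1, and 39 without either KO vehicle array. Between agonist and knockout it was 61 without KO vehicle replicate 2 and 42 without WT ATL1222 replicate 1. The causes were not tested. Irs2 has 1 probe set, with no accession listed, so no second probe set checks its values, and no detection calls were used to judge dim probe sets.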
